A study of Mus musculus with 16 samples.

Results

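Fmo1, Fmo2, Fmo4 and Fmo5 encode flavin-containing monooxygenases, and they are 4 of the 7 Fmo genes in a count table of 40840 genes. They were selected on these same libraries for the fall of Fmo2 RNA under sorafenib, with its relatives taken for comparison, so every difference between sorafenib and DMSO given for an Fmo gene is a description without a test. All 4 passed the filter of at least 10 counts over all libraries, which left 20444 genes, and only Fmo5 had over 10 counts in every library. Of the other Fmo genes, Fmo6 and Fmo9 are described beside them.

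The RNA came from a mouse cell line, p53-/-; Myc hepatoblasts, which lack the tumor suppressor p53, overexpress the oncogene Myc and serve as a culture model of hepatocellular carcinoma. All 16 libraries share this genotype and line. The groups were DMSO for 48 hours, sorafenib for 48 hours, DMSO for 7 days and sorafenib for 7 days, with 4 libraries each. Sorafenib is an oral inhibitor of several kinases given for this cancer, DMSO is its solvent, and the study asked how cells adapt their metabolism to the drug. The line is immortal in culture, so the libraries describe these cells and not liver tissue. Nothing in the labels says that replicates came from separate cultures, so p-values here measure only the spread between these libraries, which may be technical.

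Flavin monooxygenases sit in the endoplasmic reticulum membrane, carry FAD, and use NADPH and oxygen to add an oxygen atom to soft nucleophiles, chiefly nitrogen and sulfur in drugs, dietary amines and thiols. In humans, FMO1 is best known from kidney and fetal liver, and FMO2 from lung. FMO5 differs in its chemistry, since it favors Baeyer-Villiger oxidation of carbonyls, and FMO4 is the least studied of the group.

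Total counts ranged from 16586254 to 30828427 per library. The library of sorafenib for 48 hours replicate 2 held 14.5% of its counts on chromosomes 15 to 19 and X, against 21.6% to 21.9% in the other 15 libraries. The Fmo genes lie on chromosomes 1 and 3, outside that stretch. Of 10 markers of hepatocytes and hepatoblasts, Alb, Ttr, Hnf4a and Fgb had 0 counts in every library at 48 hours and Hnf4a also at 7 days. Alb was not at 0 at 7 days but missed the filter of at least 10 counts. Albumin and this liver transcription factor thus went against the hepatoblast label. Other members of the list were present, with Dlk1 at 32234, Krt18 at 286 and Krt8 at 114 normalized counts in DMSO at 48 hours. The summed level of that list was 1267 to 1328 CPM (counts scaled to library size) in DMSO at 48 hours and 399 to 468 in sorafenib, and 656 to 731 against 166 to 173 at 7 days, mostly from abundant Dlk1, a surface protein of fetal liver progenitors. A list of 10 stellate cell and fibroblast markers summed to 4850 to 4937 CPM in DMSO and 7455 to 8064 in sorafenib at 48 hours, and to 4606 to 4762 and 5014 to 5205 at 7 days, with 9 of 10 detected in DMSO and Lrat at 0. Its members went both ways, as Acta2, smooth muscle actin, rose from 4683 to 65481 normalized counts at 48 hours and Col3a1, a fibrillar collagen, fell from 70779 to 46413. Bile duct markers summed to 186 to 197 CPM in DMSO and 108 to 113 in sorafenib at 48 hours, and to 219 to 234 and 84.4 to 91.3 at 7 days. These markers also went both ways. Krt7 fell from 1877 to 490 normalized counts at 48 hours and from 3643 to 111 at 7 days. Sox9 rose from 213 to 664 and from 350 to 904. Endothelial markers were low but their sum was higher with sorafenib, mostly from Kdr, a receptor of vascular growth factor. They summed to 2.33 to 3.98 CPM in DMSO and 4.93 to 6.38 in sorafenib at 48 hours. At 7 days the sums were 1.68 to 2.85 and 8.15 to 9.40. The members did not move together. Stab2 also rose at both times, and Pecam1 was not called at either. Tek fell from 18.1 to 6.15 normalized counts at 48 hours and from 13.5 to 6.97 at 7 days. Immune markers lay between 2.42 and 3.58 CPM. Markers of adipocytes and lung, tissues known for Fmo2 RNA, summed to at most 0.194 CPM. Their part in the Fmo results was not tested. In bulk RNA, fewer cells of a type and less RNA per cell cannot be told apart.

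Fmo2 RNA was nearly absent from sorafenib-treated cells. In DMSO at 48 hours the 4 libraries held 761, 903, 694 and 816 Fmo2 counts, and in sorafenib they held 2, 0, 0 and 3. At 7 days the DMSO libraries held 362, 357, 429 and 364 counts, and all 4 sorafenib libraries held 0. No sorafenib library came near any DMSO library at either time.

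As normalized counts, which adjust each library for depth and composition, Fmo2 stood at 735 ± 36.6 (mean ± SD, n = 4) in DMSO and 1.55 ± 1.81 in sorafenib at 48 hours. The summed counts, 3174 against 5, gave a level 487-fold lower with sorafenib, with a 95% interval of 208-fold to 1499-fold (exact binomial, counting error only). At 7 days Fmo2 stood at 351 ± 37.5 in DMSO, and 1512 counts against 0 gave a level at least 498-fold lower, set against a floor of 3 counts over the 4 sorafenib libraries, or at least 125-fold lower with 3 counts allowed in each library. That floor corresponds to between 0.693 and 0.908 normalized counts, depending on the group. Bounds of this kind, here and below, take the DMSO total as exact and leave out its counting error.

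**Figure D1:**
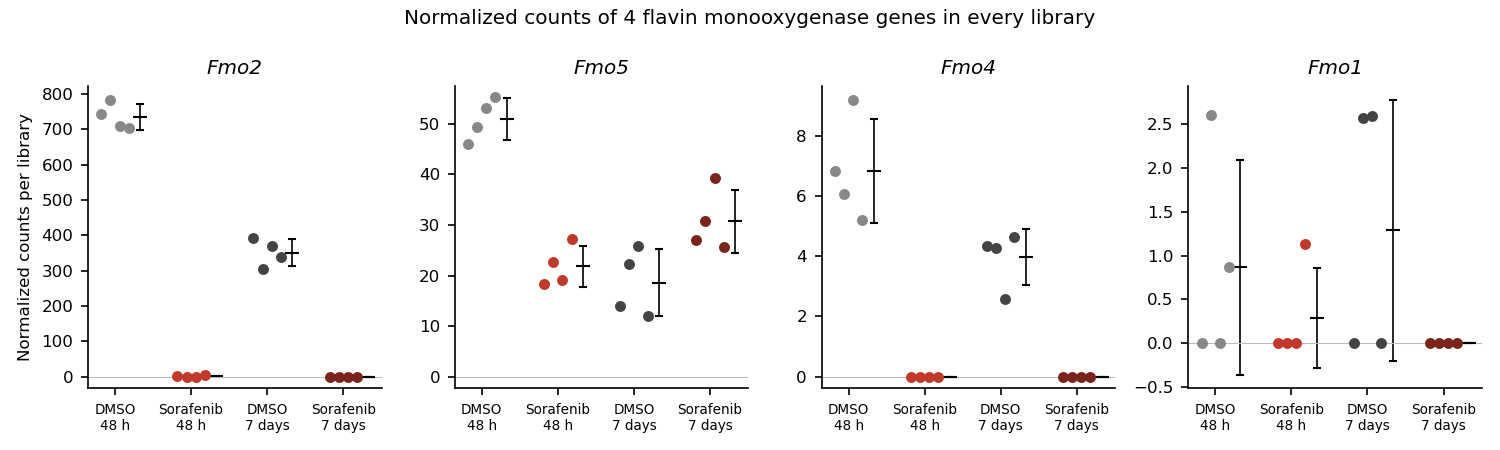
Normalized counts (vertical axis, linear, a separate scale in each panel) of Fmo2, Fmo5, Fmo4 and Fmo1 in each of the 16 libraries by group (horizontal axis); dots are libraries and black bars the mean ± SD of 4. Fmo2 and Fmo4 lie at or near 0 in both sorafenib groups, while Fmo5 is lowest in DMSO at 7 days and Fmo1 holds at most 3 counts in any library.

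Among all genes, Fmo2 ranked first in fitted decrease at 7 days and 3 at 48 hours, both among 20444 genes and among those with a DMSO mean of at least 50 normalized counts (11231 and 11458 genes). A fitted fold against 0 counts depends on the prior count, so these ranks are approximate. At 48 hours the genes ahead of it were Pnliprp2, a pancreatic lipase relative with 381 counts in DMSO and 0 in sorafenib, and the predicted gene Gm39529, with 328 and 0. Just behind stood Aire, a regulator of antigen display in the thymus (235 and 0), and Enpp6, a choline phosphodiesterase (1124 and 4). At 7 days Enpp6 (842 and 0) and Tm4sf5, a tetraspanin-like membrane protein (1883 and 1), followed Fmo2. Behind them came Chst4, a sulfotransferase (340 and 0), Unc45b, a myosin chaperone (3967 and 6), and Angptl7, a secreted angiopoietin-like protein (21955 and 37).

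Few genes with as much RNA in DMSO came so close to 0. Fmo2 was chosen for its fall, and the cutoffs used here are its own totals. Its place among these genes is therefore a description that such a choice favors, and not a test. At 48 hours 6704 genes had at least as many DMSO counts as Fmo2, and none of the others had as few as 5 sorafenib counts. The next lowest was nonagouti (a), with 3308 in DMSO and 33 in sorafenib. At 7 days 8516 genes had at least as many DMSO counts, and Fmo2 alone among them had 0 in sorafenib. Tm4sf5, with 1 count, was the next.

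**Figure D2:**
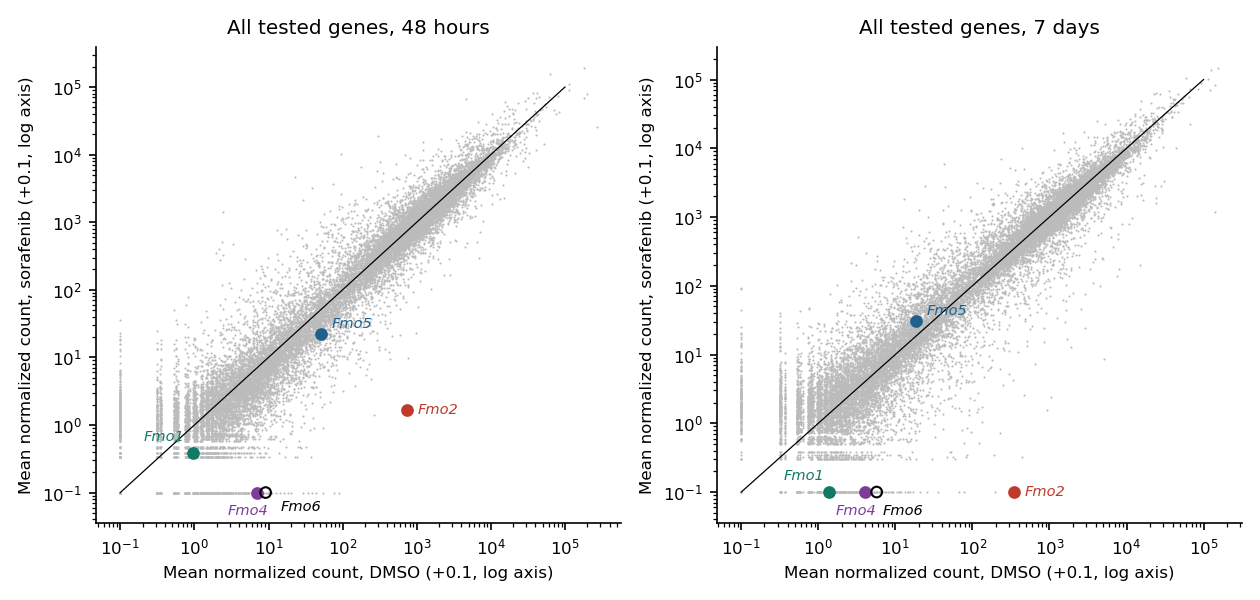
Mean normalized counts of 4 libraries in DMSO (horizontal, log axis, 0.1 added) against sorafenib (vertical, log axis, 0.1 added) for the 20444 tested genes at 48 hours and 7 days; grey dots are genes, filled circles Fmo1, Fmo2, Fmo4 and Fmo5, the open circle Fmo6, and the line marks equal levels. Fmo2, at 735 in DMSO and 1.55 in sorafenib at 48 hours, lies far below the line at both times, and Fmo5 stays close to it.

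In vehicle alone, Fmo2 was also lower at 7 days than at 48 hours. The labels do not say whether both times came from a single time course. Here and below, time in culture therefore cannot be told apart from other differences between the sets of libraries. The genes were chosen on treatment and not on time, but the same libraries served that choice. The p-values of time changes given for Fmo genes are therefore not independent of it. Fmo2 went from 735 ± 36.6 to 351 ± 37.5 normalized counts between 48 hours and 7 days, a log2 change of -1.07 (SE 0.0876, adjusted p = 2.14e-08, edgeR). All 4 libraries at 7 days lay below all 4 at 48 hours (exact permutation p = 0.0286, two-sided, the smallest that 4 against 4 allows). In sorafenib the total of 5 counts at 48 hours and 0 at 7 days passed the edgeR threshold narrowly (adjusted p = 0.0471), but the libraries overlapped (exact permutation p = 0.429). That call was lost when any of 11 libraries was left out, which were DMSO replicates 1, 3 and 4 and sorafenib replicates 1 and 4 at 48 hours and DMSO replicates 3 and 4 and all sorafenib replicates at 7 days. The adjusted p was then up to 0.159 (without sorafenib replicate 4 at 48 hours).

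Fmo4 lies at the end of the chromosome 1 cluster and was a low transcript. Its libraries held 7, 7, 9 and 6 counts in DMSO and 0, 0, 0 and 0 in sorafenib at 48 hours, then 4, 5, 3 and 5 in DMSO and again 0 in all 4 with sorafenib at 7 days. Every DMSO library lay above every sorafenib library, although the depth allowed only modest bounds. Levels were at least 7.41-fold lower at 48 hours (29 counts against 0) and at least 5.60-fold lower at 7 days (17 against 0). These values hold only if the small DMSO totals are taken as exact. With 3 counts allowed in each library, these bounds were 1.85-fold and 1.40-fold. Between the DMSO groups the log2 change was -0.76 with time (SE 0.417, adjusted p = 0.156, edgeR), below the threshold, while the libraries did not overlap (exact permutation p = 0.0286).

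Fmo1, next to Fmo2 on the chromosome, was at the limit of detection. It had 0, 3, 0 and 1 counts in DMSO and 0, 0, 0 and 1 in sorafenib at 48 hours, and 0, 3, 3 and 0 in DMSO and 0 throughout in sorafenib at 7 days. These libraries overlapped at both times. The 48-hour ratio of sorafenib to DMSO was 0.326 with a counting interval from 0.00662 to 3.30, which spans no difference. At 7 days 6 counts against 0 bounded the level at 1.98-fold lower or more if the 3-count floor is taken over the group, and no bound below DMSO remained with 3 counts per library. In DMSO the time change was 0.52 on the log2 scale (SE 1.06, adjusted p = 0.727, edgeR; exact permutation p = 1), not detectable at this depth.

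The cluster also holds Fmo6, which was not among the 4 genes selected. It had 9, 8, 9 and 13 counts in DMSO at 48 hours and 3, 10, 7 and 5 at 7 days, and 0 in all 8 sorafenib libraries. Fmo6 was thus seen in every DMSO library and in no sorafenib library, at levels at least 9.96-fold and 8.24-fold lower with sorafenib at 48 hours and 7 days, or 2.49-fold and 2.06-fold with 3 counts allowed in each library. With time in DMSO it changed by -0.65 on the log2 scale (SE 0.386, adjusted p = 0.193, edgeR; exact permutation p = 0.0571). Its counts are uncertain, since 22 stretches of 50 bases in its transcript occur in another transcript too, whereas none of the 4 selected genes shares such a stretch with another Fmo gene. Fmo9, which lies apart from the cluster, had 0 counts in all 16 libraries, which allows up to 3 counts per library.

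Fmo5 was the only family member left at a measurable level in all sorafenib libraries, and it behaved differently from Fmo2. At 48 hours the DMSO libraries held 47, 57, 52 and 64 counts and the sorafenib libraries 13, 15, 20 and 24, with no overlap once normalized (45.9 to 55.3 against 18.2 to 27.3). At 7 days the DMSO libraries held 13, 26, 30 and 13 counts and the sorafenib libraries 24, 38, 45 and 26. After normalization these ran from 12.1 to 25.9 and from 25.6 to 39.4, so the highest DMSO library just passed the lowest sorafenib library.

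The mean of Fmo5 was 50.9 ± 4.12 in DMSO and 21.8 ± 4.12 in sorafenib at 48 hours, a log2 difference of -1.22 (SE 0.208). At 7 days it was 18.6 ± 6.59 in DMSO and 30.7 ± 6.19 in sorafenib, a log2 difference of 0.71 (SE 0.219). The predicted lncRNA Gm64400 overlaps exons of Fmo5 on the other strand, and the strand setting of the counting is not given in the sources used here. The treatment difference had opposite signs, and the later log2 value minus the earlier was 1.93 (SE 0.303). Both treatment differences share their libraries with the time changes that follow.

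In DMSO, Fmo5 fell by 1.43 on the log2 scale between 48 hours and 7 days (SE 0.201, adjusted p = 5.38e-06, edgeR; exact permutation p = 0.0286). All 4 DMSO libraries at 7 days were lower than all 4 at 48 hours. In sorafenib the change was 0.50 (SE 0.227, adjusted p = 0.0870, edgeR; exact permutation p = 0.0857), with overlapping libraries. That value passed the threshold without replicate 4 of sorafenib at 48 hours (log2 0.66, adjusted p = 0.0462) or with genes limited to those with at least 10 counts in every library (log2 0.56, adjusted p = 0.0391).

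In counts of calls, 2 of the 4 genes, Fmo2 and Fmo5, passed the threshold between the DMSO times, where 49.4% of all tested genes did. In sorafenib 1 of 4, Fmo2, passed between the times, against 39.7% of all genes. For treatment, the sorafenib libraries lay wholly below the DMSO libraries for 3 of the 4 genes at 48 hours (Fmo2, Fmo4 and Fmo5) and for 2 of 4 at 7 days (Fmo2 and Fmo4). Over all tested genes this held for 24.9% and 28.4%. Since treatment chose the genes, nothing is read from these shares.

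The makeup of the family changed with treatment. Of all Fmo counts in a library, Fmo2 made up 90.2% to 91.3% in DMSO at 48 hours and 85.4% to 91.4% at 7 days. It made up 0% to 13.3% in sorafenib at 48 hours and 0% at 7 days. Fmo5 took 5.63% to 7.07% and 3.20% to 6.22% of the family counts in the DMSO groups, and 85.7% to 100% and 100% in the sorafenib groups. The summed normalized counts of the family were 809 ± 36.3 in DMSO and 23.6 ± 5.64 in sorafenib at 48 hours, and 395 ± 33.5 and 30.7 ± 6.19 at 7 days.

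Levels between genes are compared per kilobase of exon, as CPM per kb. In DMSO at 48 hours Fmo2 led with 5.20 ± 0.259, and Fmo5 followed with 0.308 ± 0.0249. Below them came Fmo6 (0.184 ± 0.0358), Fmo4 (0.0732 ± 0.0184) and Fmo1 (0.00340 ± 0.00481), and no neighbors in this order overlapped. In DMSO at 7 days Fmo2 had 2.49 ± 0.266, Fmo6 0.114 ± 0.0462, Fmo5 0.112 ± 0.0398 and Fmo4 0.0425 ± 0.00994, and Fmo6 and Fmo5 overlapped.

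Fmo2 was thus first in both vehicle groups by a wide margin. In sorafenib Fmo5 was first, with 0.132 ± 0.0249 CPM per kb at 48 hours and 0.185 ± 0.0374 at 7 days, and Fmo2 had 0.0110 ± 0.0128 at 48 hours. Coding length in place of exon length raised Fmo5 above Fmo6 in DMSO at 7 days (0.446 ± 0.158 against 0.134 ± 0.0542), without moving Fmo2 from its place in any group.

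The genes sit at 2 places in the genome. In GRCm39, with GENCODE M39 gene models, a cluster of Fmo genes lies on the minus strand of chromosome 1, and only other Fmo genes flank Fmo2. In coordinate order it includes Fmo4 (chr1:162620757-162641541), Fmo1 (chr1:162655471-162694185), Fmo2 (chr1:162701873-162726295) and Fmo6 (chr1:162744120-162765084). The gaps between them run from 7.69 kb, between Fmo1 and Fmo2, to 17.8 kb, between Fmo2 and Fmo6. Fmo9 lies 3678 kb further along, and Fmo5 is alone on the plus strand of chromosome 3 (chr3:97531564-97562598).

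The genes on either side of the cluster were still detected under sorafenib, with differences in both directions. Prrc2c, an RNA-associated protein gene 52.6 kb before Fmo4 and the nearest tested neighbor, had 12455 ± 366 normalized counts in DMSO and 12790 ± 607 in sorafenib at 48 hours, a log2 difference of 0.04 (adjusted p = 0.355, edgeR). At 7 days it fell by 0.22 (15499 ± 222 to 13300 ± 307, adjusted p = 8.45e-06, edgeR). Prrx1, a homeobox gene of mesenchymal cells 230 kb past the cluster, rose by 1.31 and 1.73 at the 2 times (827 ± 29.3 to 2046 ± 114 and 577 ± 18.3 to 1915 ± 45.5).

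Of the 10 nearest tested protein-coding genes, 5 on each side, 3 rose and 2 fell at 48 hours. At 7 days 5 rose and 4 fell, with log2 differences from -0.67 to 1.73. Of these, the call of Gorab (log2 0.22) was lost without DMSO replicate 1 or 2 or sorafenib replicate 1 at 7 days. Across all tested genes 26.9% rose and 27.7% fell at 48 hours, and 28.9% and 27.9% at 7 days. The largest decrease called among the 10 was that of Mettl18, a histidine methyltransferase gene, at -0.48 and -0.67. Suco, Pigc, Dnm3, Vamp4, Gorab, Kifap3 and Scyl3 made up the rest, with log2 differences between -0.76 (Dnm3 at 48 hours, adjusted p = 0.0688, edgeR) and 0.40 (Suco at 48 hours).

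Fmo5, which stood lower at 48 hours and higher at 7 days, lies among genes with differences in both directions. Prkab2, a subunit of the energy sensor AMPK 2.91 kb past Fmo5, rose at both times (690 ± 30.0 to 2172 ± 200, log2 1.65, and 1140 ± 41.9 to 3101 ± 37.5, log2 1.44). Chd1l, a chromatin remodeler 14.0 kb before it, rose by 0.24 at 48 hours, and at 7 days its difference of 0.03 missed the threshold (adjusted p = 0.556, edgeR). Bcl9, a coactivator of β-catenin, fell by 0.68 and 1.16. Of the 6 genes taken, 4 rose and 2 fell at 48 hours, and 3 rose and 2 fell at 7 days.

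**Figure D3:**
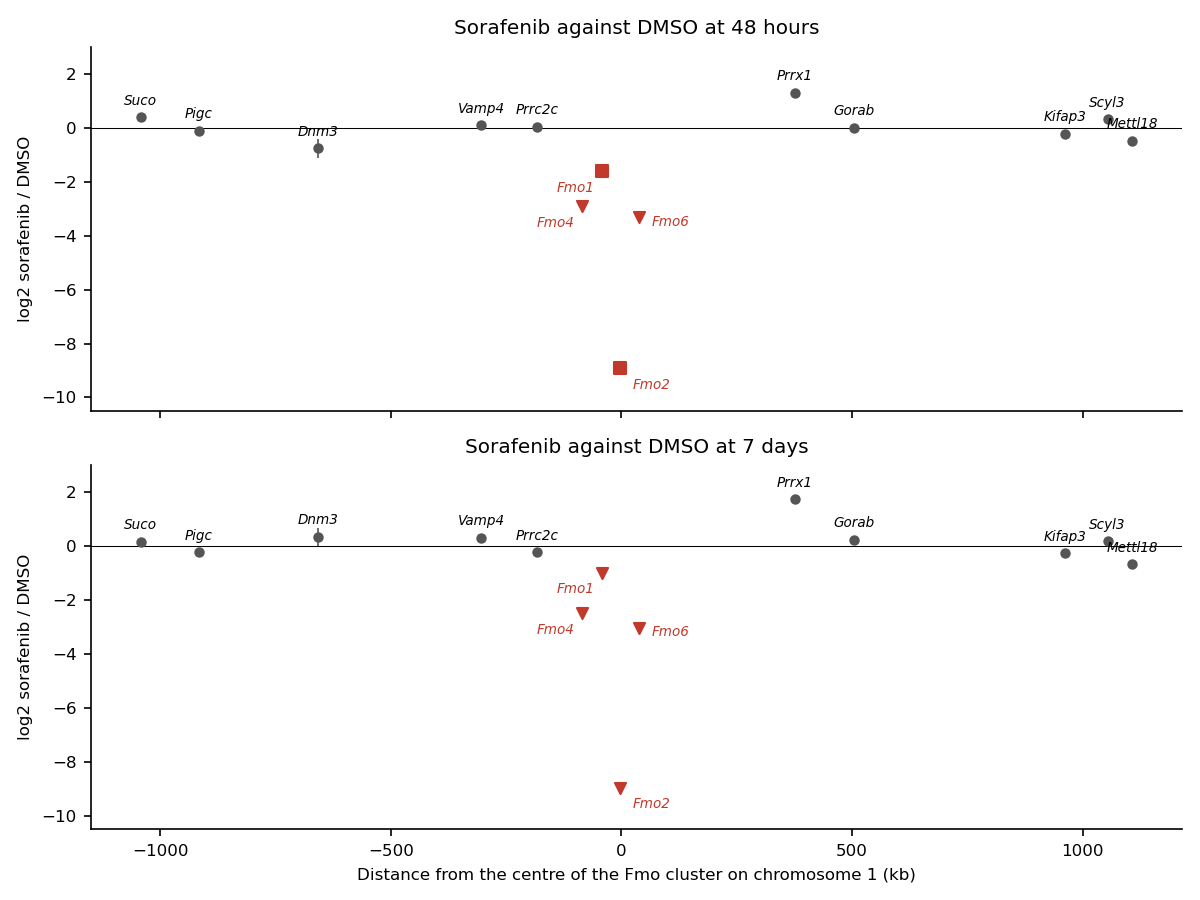
The log2 ratio of sorafenib to DMSO (vertical axis) at 48 hours and 7 days for 4 Fmo genes of the chromosome 1 cluster and 10 neighboring genes, against the distance of each gene's midpoint from the center of the cluster in kb (horizontal axis). Grey dots are fitted values with SE, and red squares are ratios of summed counts. Red triangles are upper bounds against 3 counts, which take the DMSO total as exact. The neighbors stay between -0.76 and 1.73, while Fmo2 reaches -8.93 at 48 hours and at most -8.96 at 7 days.

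Promoter sequences are shown because Fmo2 and Fmo4 had 0 counts in every sorafenib library at 7 days and Fmo5 did not. RefSeq windows from 250 bases before to 50 after an annotated start, in build GRCm38.p6, were found for 3 of the 4 genes, with a pair of starts for Fmo2 and none for Fmo1. Motifs searched on both strands were the TATA box TATAAA (found in 13.6% of the 32851 windows of all genes), the AP-1 site TGANTCA (7.81%), the E-box CACGTG (7.15%), the core GCGTG of the dioxin receptor site (32.4%), the forkhead core TGTTTNC (20.5%) and the HNF1 half-site GTTAAT (7.10%). No letters of one motif overlapped another in these windows. Capitals mark every match, and sequences run 5′ to 3′ on the strand of the gene.
Fmo2, chr1:162898444-162898743, minus strand: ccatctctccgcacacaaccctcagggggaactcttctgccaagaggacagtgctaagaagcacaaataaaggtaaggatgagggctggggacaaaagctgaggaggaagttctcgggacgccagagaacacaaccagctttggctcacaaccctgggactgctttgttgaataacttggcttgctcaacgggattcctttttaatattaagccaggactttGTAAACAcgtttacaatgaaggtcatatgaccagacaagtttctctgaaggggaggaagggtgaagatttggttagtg
Fmo2, chr1:162898709-162899008, minus strand: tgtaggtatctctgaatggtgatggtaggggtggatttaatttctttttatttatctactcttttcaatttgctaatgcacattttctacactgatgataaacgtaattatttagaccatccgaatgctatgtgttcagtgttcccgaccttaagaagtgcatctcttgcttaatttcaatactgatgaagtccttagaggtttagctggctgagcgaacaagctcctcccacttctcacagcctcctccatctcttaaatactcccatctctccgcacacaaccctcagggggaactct
Fmo4, chr1:162812500-162812799, minus strand: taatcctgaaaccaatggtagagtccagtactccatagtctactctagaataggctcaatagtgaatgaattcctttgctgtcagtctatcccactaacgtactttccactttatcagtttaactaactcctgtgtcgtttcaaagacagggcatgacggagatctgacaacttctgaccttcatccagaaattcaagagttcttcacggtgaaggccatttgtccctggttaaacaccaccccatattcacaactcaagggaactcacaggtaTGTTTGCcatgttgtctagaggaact
Fmo5, chr3:97628769-97629068, plus strand: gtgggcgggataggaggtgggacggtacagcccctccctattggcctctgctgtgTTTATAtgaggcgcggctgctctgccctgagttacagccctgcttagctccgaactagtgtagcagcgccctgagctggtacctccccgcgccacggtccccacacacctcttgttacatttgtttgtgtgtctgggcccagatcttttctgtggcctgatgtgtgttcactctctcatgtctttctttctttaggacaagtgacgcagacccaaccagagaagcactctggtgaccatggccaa

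The downstream Fmo2 window and the Fmo4 window each held TGTTTNC, on the other strand at -28 for Fmo2 and on the strand of the gene at 25 for Fmo4, counted from the annotated start. The window of Fmo6, which also had 0 counts in every sorafenib library, held no TGTTTNC and GTTAAT at -32 and 27. The upstream Fmo2 window held none of the 6 motifs. The Fmo5 window held TATAAA on the other strand at -195. As 20.5% of all windows hold TGTTTNC, its presence is a description of these sequences only. Nothing about the binding of any factor was measured here.

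Lists of genes linked to the family were chosen with earlier results of these data in view, and each count stands beside the all-gene shares of 26.9% higher and 27.7% lower at 48 hours and 28.9% and 27.9% at 7 days. For enzymes that supply FAD or pass electrons to neighboring oxidases, 5 of 10 tested genes rose and 2 fell at 48 hours, and 3 rose and 4 fell at 7 days (median log2 difference 0.20 and -0.07, against -0.05 and 0.02 over all genes). The count of 2 was 1 without any of 11 libraries (DMSO replicates 2 and 3 and sorafenib replicate 2 at 48 hours, and each 7-day library), and that of 5 was 3 without sorafenib replicate 3 at 48 hours. Por, the NADPH reductase of cytochromes P450, fell from 4222 ± 73.9 to 1469 ± 47.6 at 48 hours (log2 -1.52) and from 3470 ± 62.7 to 1396 ± 35.6 at 7 days (log2 -1.31). Cyb5r1, a cytochrome b5 reductase gene, rose from 1070 ± 32.3 to 4689 ± 294 and from 1274 ± 30.7 to 5236 ± 83.1. Slc25a32, the mitochondrial folate and FAD carrier, rose by 0.75 at 48 hours (0.90 without sorafenib replicate 2 at 48 hours) and had a difference of -0.10 at 7 days (adjusted p = 0.475, edgeR).

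Genes that make NADPH, the electron donor of the family, were split. Of 10 tested, 5 rose and 4 fell at 48 hours and 5 rose and 3 fell at 7 days (medians -0.12 and -0.05). The count of 5 at 7 days was 3 without replicate 3 of either 7-day group. Me1, the cytosolic malic enzyme, rose by 1.30 and 0.52, and Taldo1, transaldolase of the pentose phosphate pathway, by 0.89 and 0.32. Idh1, the cytosolic isocitrate dehydrogenase, fell from 4384 ± 95.7 to 2608 ± 81.0 and from 3798 ± 131 to 1192 ± 70.4.

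Other monooxygenases that carry a flavin showed no shared direction, with 3 of 8 tested higher and 3 lower at 48 hours and 4 and 3 at 7 days (medians -0.04 and 0.09). Mical2, which oxidizes actin, rose from 11982 ± 598 to 32566 ± 1124 at 48 hours and by 0.15 at 7 days. Its relative Mical3 fell by 0.12 and 0.97. Sqle, the squalene epoxidase of cholesterol synthesis, fell by 1.12 (0.98 without replicate 2 of sorafenib at 48 hours) and 2.15.

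For the route from cysteine and cysteamine to taurine, whose last step FMO1 can catalyze, 2 of 8 tested rose and 2 fell at 48 hours, and 0 rose and 3 fell at 7 days (medians -0.10 and 0.01). The count of 0 by edgeR was 2 at an unadjusted p under 0.05 and 1 with DESeq2. It became 3 without sorafenib replicate 2 at 48 hours, and 1 without sorafenib replicate 3 at 48 hours or replicate 2 of either 7-day group. Csad, the decarboxylase that forms hypotaurine, fell by 1.02 (0.87 without sorafenib replicate 2 at 48 hours) and 0.91. Ado, the cysteamine dioxygenase, fell by 0.57 and 0.59. Vnn1, a pantetheinase that releases cysteamine, rose by 0.63 at 48 hours and fell by 0.75 at 7 days.

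Genes that undo such oxidations, the methionine sulfoxide reductases, amidoxime reducers, aldehyde oxidases and thioredoxin system, were mostly higher. Of 9 tested, 5 rose and 1 fell at 48 hours and 7 rose and 1 fell at 7 days (medians 0.30 and 0.46). The 1 that fell at 48 hours became 2 without DMSO replicate 4 at that time. Over all 23 alternatives the number that fell ran from 1 to 3 at 48 hours and from 0 to 1 at 7 days. Msra rose by 1.22 and 0.46 and Msrb3 by 0.98 and 0.32. Aox3, an aldehyde oxidase of low level, fell at 7 days (15.6 ± 3.64 to 5.61 ± 2.68) and differed by -0.57 at 48 hours (adjusted p = 0.327, edgeR).

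Of 22 regulators known for drug-metabolism genes, 17 were tested, with 7 higher and 6 lower at 48 hours and 5 and 7 at 7 days (medians 0.21 and 0.00). The count of 5 was 3 without any of 4 of the 7-day libraries (DMSO replicates 2 and 4, sorafenib replicates 1 and 3). Ahr, the dioxin receptor, rose by 0.21 at 48 hours and fell by 2.15 at 7 days (2861 ± 93.0 to 644 ± 38.0). Nr1h4, the bile acid receptor FXR, rose from 36.8 ± 6.74 to 187 ± 25.3 and from 131 ± 9.61 to 208 ± 11.2. Esr1, the estrogen receptor, fell by 2.82 at 48 hours and rose by 1.64 at 7 days at low levels, with an adjusted p of 0.0259 at 7 days (edgeR). That call was lost without DMSO replicate 2 or 4 or sorafenib replicate 1 or 3 at 7 days, with an adjusted p up to 0.105 (sorafenib replicate 3). Hnf4a had no counts.

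For oxidation of retinoids, amines and aldehydes, 6 of 10 tested rose and 2 fell at 48 hours and 5 rose and 5 fell at 7 days (medians 0.38 and -0.12). Aldh2, the mitochondrial aldehyde dehydrogenase, rose by 0.44 and 2.00 (806 ± 25.7 to 3220 ± 60.4 at 7 days). Pipox, a peroxisomal flavoenzyme that oxidizes pipecolate and sarcosine, fell from 32.1 ± 2.92 to 1.60 ± 0.836 and from 12.4 ± 2.63 to 0.871 ± 0.668. Maob, monoamine oxidase B, rose by 2.10 at 7 days, from 1.35 ± 1.48 to 6.40 ± 2.15.

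**Figure D4:**
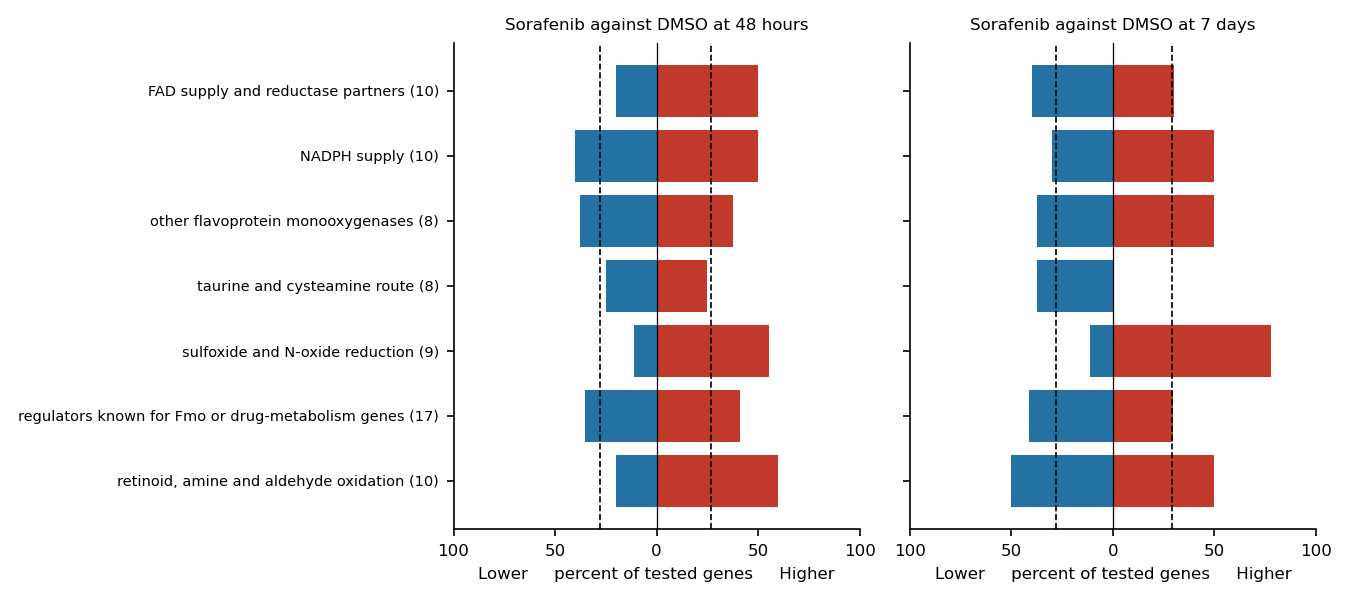
Percent of tested genes of 7 lists that were higher (right, red) or lower (left, blue) with sorafenib at an adjusted p under 0.05 (edgeR), at 48 hours and 7 days, with the number of tested genes in brackets and dashed lines at the shares over all 20444 genes. The sulfoxide and N-oxide reduction list lies furthest right at 7 days (7 of 9 genes higher), and the other lists hold genes on both sides except the taurine list at 7 days (0 higher, 3 lower).

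The genes whose pattern over the 16 libraries was most like each Fmo gene were named by Pearson correlation of log2 CPM among 11490 genes, as a description. Those for Fmo2 included Pclaf (r = 0.994), a partner of the replication clamp, Por (0.992), Lrrc1 (0.992) and Crip1 (0.992). These 4 were high in both DMSO groups and lower in both sorafenib groups, as Pclaf was at 4464 and 3890 against 1995 and 1808 normalized counts. None came close to 0 in sorafenib, and Crip1, the lowest there, kept 177 and 125.

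For Fmo4 the nearest were Ankle1 (0.987), Por (0.984), Gmnn (0.982), the replication inhibitor geminin, Hoxa5 (0.980) and Gm14403 (0.980). For Fmo5 they were Patj (0.922), a polarity scaffold, Nelfb (0.901), Smad3 (0.899), a TGF-β effector, Ubap1 (0.893) and Mpp2 (0.888). Patj had its group means in the same order as Fmo5, with 673 and 460 in DMSO and sorafenib at 48 hours and 443 and 572 at 7 days. Fmo1 had no gene above 0.754 (Morf4l1b), at a level of few counts. The median correlation over all genes lay between -0.02 and 0.04. The points share libraries, depth and the split between treatments.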

How the data were processed

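RNA of 16 libraries in 4 groups of 4 was sequenced by the authors with the Illumina Stranded mRNA Prep kit. Per the study's methods and the submitters' processing notes, reads were aligned to GRCm39 with STAR 2.7.1a; the notes also name featureCounts 2.0.6, Subread and DESeq2 1.40.2. The deposited values are whole-number counts per gene for 40840 genes, with no normalization, filter or pooling. The annotation and strand setting used for counting are not given in the sources used here. Groups came from the treatment labels.

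Genes with at least 10 counts in total (20444) were fitted in R 4.3.3 with edgeR 4.0.16 (TMM, quasi-likelihood test, 1 coefficient per group, all 16 libraries) and called at a Benjamini-Hochberg adjusted p under 0.05. Differences between treatments for Fmo genes had no test. Fmo genes with few counts were compared by summed counts over library totals times TMM factors, with exact binomial 95% intervals, and with a floor of 3 counts over a group at 0. Intervals cover counting error only. Floors cover that of the group at 0 only and take the total of the other group as exact. Normalized counts divide by the same exposure, relative to its geometric mean. Fmo time changes also had exact two-sided permutation tests. Positions and exon lengths came from GENCODE M39, and promoter windows from RefSeq (GRCm38.p6).

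Named genes were the Fmo genes, the 5 nearest tested protein-coding genes on each side of the cluster and 3 on each side of Fmo5, the 3 largest called changes of each list with any member that explains a count, the 5 genes most correlated with each selected gene, and the 5 largest decreases with a DMSO mean of at least 50. Some genes that come under this rule are not reported here. The members and the lists were chosen with earlier results of these data known. Alternatives were DESeq2 1.42.0, its size factors, library totals, other filters, 8 libraries only, a replicate block, each library left out, a floor per library and, chosen after seeing the data, coding length and the list counts. Correlations of deviations between same-numbered libraries ran from -0.176 to 0.131 over 10660 genes. Libraries with different numbers were not compared in this way, so the check cannot exclude a pairing by number. No library repeated another of its group, as the chi-square between any pair of replicates was at least 1.49 per gene. Some pairs stood far apart. DMSO replicate 4 at 7 days differed from the other replicates by 41.4 to 55.0, and those from each other by 1.78 to 2.79. Sorafenib replicate 2 at 48 hours differed from the others by 27.0 to 30.7. In DMSO at 48 hours the values ran from 4.19 to 32.7. The reason was not tested. The fit was tested on simulated data. Plots were drawn with matplotlib 3.10.9 under Python 3.11.15.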

Additional observations from a re-analysis of the deposited data

Results flagged for a closer look

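In sorafenib at 48 hours, replicate 4 stood apart from the other 3 libraries for Fmo1, at 1.14 normalized counts against 0. This rests on a single count beside libraries at 0. In such a group the gap is always the whole range, so the flag carries no information.

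The effect of sorafenib differed between the times for 43 of the 72 tested list genes, and 7 of them were called in opposite directions. Over all tested genes, 7515 of 20444 had a called difference. How many of those had opposite directions was not counted. The lists were chosen with earlier results of these data in view, so nothing is read from their count. Differences are given as the log2 effect at 7 days minus that at 48 hours, from the edgeR interaction term. Among the named genes, 3 had opposite directions. The value was -2.37 for Ahr (adjusted p = 2.28e-15, edgeR), which was higher at 48 hours and lower at 7 days. It was 4.46 for Esr1 (adjusted p = 0.000147, edgeR), which was lower and then higher at under 30 normalized counts. It was -1.38 for Vnn1 (adjusted p = 4.51e-11, edgeR), which was higher and then lower.

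Other named list genes passed the same test without called effects in opposite directions. The value was 1.55 for Aldh2, 0.21 for Por, -1.66 for Nr1h4, -1.30 for Mical2, -0.86 for Mical3, -0.92 for Idh1, -0.78 for Me1, -0.57 for Taldo1, -0.76 for Msra and -0.66 for Msrb3. It was -1.04 for Sqle and -0.85 for Slc25a32, both on chromosome 15, where replicate 2 of sorafenib at 48 hours stood apart. Near the chromosome 1 cluster it was 0.42 for Prrx1, 0.22 for Vamp4, -0.23 for Suco and -0.26 for Prrc2c. Near Fmo5 it was 0.24 for Acp6, -0.47 for Bcl9, -0.20 for Chd1l, -0.40 for Pde4dip and -0.21 for Prkab2.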

How the results depend on the processing

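The fall of Fmo2 and Fmo5 with time in DMSO kept its direction and its call under all alternatives that gave a value, with log2 changes from -1.13 to -1.01 and from -1.63 to -1.27, and Fmo4 and Fmo1 stayed uncalled there. Counts of genes called over all genes stayed within 1.5 times of 11158, 11613, 10100, 8120 and 7515 for sorafenib at 48 hours, at 7 days, DMSO over time, sorafenib over time and the difference of the effects. With library totals only, the last split into 4125 higher and 3292 lower in place of 3162 and 4353. With the replicate block the counts were 10644, 11027, 9531, 7481 and 6987, and the block changed no call of the named genes. Replicate numbers mark no known pairing.

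Fmo5 over time in sorafenib was 0.56 and called with at least 10 counts in every library, and ran from 0.36 to 0.66 with 1 library left out. The adjusted p of Fmo2 over time in sorafenib ran from 0.0145 to 0.159 with 1 library left out. With a floor of 3 counts per library, the log2 bound at 7 days became -6.96 for Fmo2, -0.49 for Fmo4 and 1.02 for Fmo1, the last with its sign reversed, and that of Fmo4 at 48 hours -0.89, since the floor itself is higher. With 1 library left out, the log2 ratio at 48 hours ran from -9.80 (without sorafenib replicate 4, which holds 3 of the 5 counts) to -8.37 for Fmo2, -3.01 to -2.34 for Fmo4 and -2.01 to 0.42 for Fmo1, whose only sorafenib count lies in replicate 4. At 7 days it ran from -9.03 to -8.47 for Fmo2, -2.66 to -1.997 for Fmo4 and -1.40 to -0.49 for Fmo1. Of 644 recomputed list counts, 38 differed by over 1.5 times, in 10 of the 28 counts, and the cause was not tested. Mical3 at 48 hours lost its call with no filter beyond 1 count (adjusted p = 0.0743, edgeR). Fmo1, Fmo2 and Fmo4 gave no value with at least 10 counts in every library, and a RefSeq protein length was not used here. At these depths, changes of Fmo1 could not be detected, and those of Fmo4 and Fmo6 could be bounded only.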
